A study of Mus musculus with 2 samples.

Results

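The nuclear genes of the mouse respiratory chain were described in MEL cells. This mouse line comes from an erythroleukemia, a tumor of early red cell precursors. Members were chosen by name and type: protein-coding genes on a nuclear chromosome whose symbol begins with Nduf, Uqcr, Cox4 to Cox8 or Atp5, or is Sdha, Sdhb, Sdhc, Sdhd or Cyc1. The annotation held 95 such genes, of which 94 had a row in both tables, among 69691 gene rows and 21461 rows of nuclear protein-coding genes. They comprised 44 genes of complex I, 4 of complex II, 9 of complex III, 20 of complex IV and 17 of complex V. Of the 94 members, 76 are standard subunits. The other members are 8 assembly factors of complex I, 8 tissue isoforms of complex IV, the supercomplex factor Cox7a2l and the coupling factor Atp5s. A further 13 genes of other types with matching names, 12 of them processed pseudogenes, were left out.

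Both libraries were total RNA of MEL cells, an immortalized line, kept in 2% dimethyl sulfoxide (DMSO) for 5 days, an agent that drives this line toward hemoglobin-making cells. Untreated cells were not analysed here, so no value given is a response to the treatment. The labels number the libraries as biological replicates 1 and 2 but give them 1 biosample entry, so the spread between them may be technical. Estimated counts summed to 65109488 in replicate 1 and 90856320 in replicate 2, and a count of 0 allows up to 3 counts, or 0.0461 and 0.0330 CPM (counts scaled to the library total). All 9 erythroid markers were at 1 TPM (a level per transcript length, scaled to a fixed total per library) or more in both libraries. By the scaled counts compared below, 6 of them were over 2-fold higher in replicate 2. In TPM, Hba-a1, which is among these 6, rose by less than 2-fold, from 2038 to 3934. None of 7 muscle, 6 testis germ cell, 3 myeloid, 3 lymphoid and 2 stromal and endothelial markers reached 1 TPM in both.

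The respiratory chain passes electrons from NADH (complex I) and succinate (complex II) through coenzyme Q, complex III and cytochrome c to oxygen at complex IV, and the proton gradient that complexes I, III and IV build drives ATP synthesis by complex V. Most subunits are encoded in the nucleus, while a few central ones are encoded by mitochondrial DNA, except in complex II, which is wholly nuclear. Several complex IV subunits exist as a widely expressed form and as forms typical of muscle, lung or testis. Maturing red cells need mitochondria for heme synthesis and later discard them.

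Nearly the whole set was expressed, at levels far above the typical gene. At 1 TPM or more in both libraries stood 87 of the 94 members, against 37.2% of nuclear protein-coding genes. All 76 standard subunits were expressed, and all 76 exceeded the median of expressed nuclear protein-coding genes, which was 4.83 TPM in replicate 1 and 3.98 in replicate 2. Over the 94 members the median level came to 34.4 TPM in replicate 1 and 30.6 in replicate 2. Among the top 500 nuclear protein-coding genes by level, 50 belonged to the set in replicate 1 and 55 in replicate 2. Together the members took 1.07% ± 0.0613 (SD, n = 2) of all counts. Of the TPM that fell on nuclear protein-coding rows, their part was 3.39% in replicate 1 and 3.27% in replicate 2. Nuclear protein-coding genes held 13.2% and 12.7% of all TPM in these tables, so 1 TPM is a stricter cutoff than in a table of mRNA alone.

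The complexes stood at different levels. Standard subunits of complex IV had the highest median, with 93.9 TPM in replicate 1 and 103 in replicate 2, which was 22.6 ± 4.51 times the median of expressed genes (SD, n = 2). Complex V followed with 73.6 and 69.1 TPM, or 16.3 ± 1.5 times. Complex III had medians of 35.7 and 39.7 TPM (8.69 ± 1.83 times), complex I of 32.7 and 29.3 TPM (7.06 ± 0.428 times), and complex II of 27.2 and 21.8 TPM (5.55 ± 0.113 times). The order of complexes IV, V, III, I and II was the same in both libraries. In fold over the median of expressed genes, the gap between complexes III and I was smaller than the SD of complex III. In TPM the gap was larger than that spread. The mean of the 2 medians was 37.7 ± 2.84 TPM for complex III, 31.0 ± 2.36 for complex I and 24.5 ± 3.83 for complex II (SD, n = 2).

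**Figure D1:**
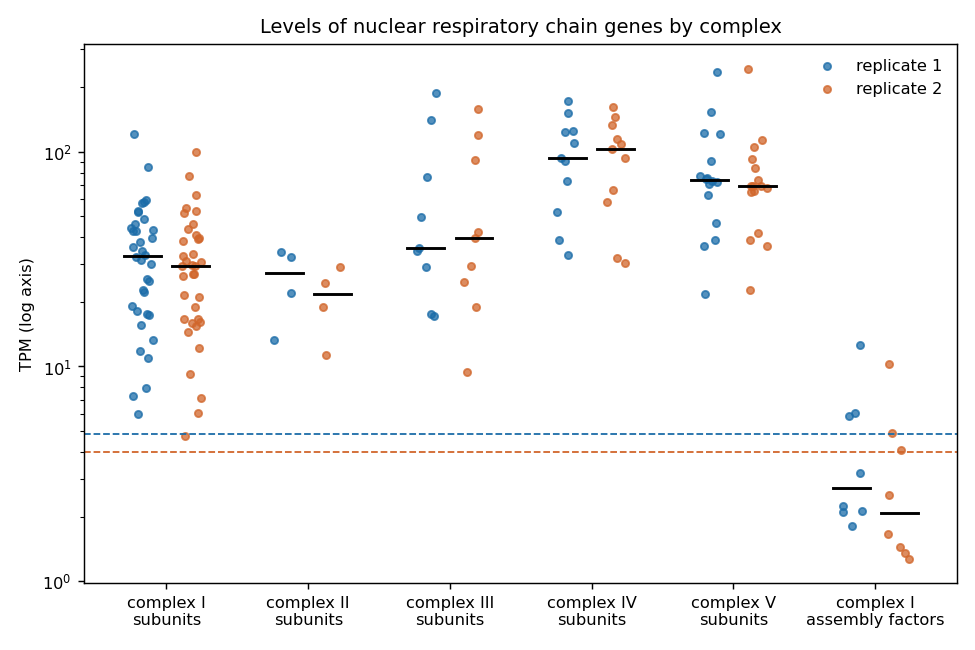
Each point is 1 gene in 1 library, with TPM on a log axis, grouped as standard subunits of complexes I to V and assembly factors of complex I; black bars are group medians and dashed lines the medians of all expressed nuclear protein-coding genes in each library. All points of the standard subunits lie above the dashed line of their library, while most assembly factors lie below it.

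In complex I, the entry point of NADH, the accessory subunits had higher medians than the core that carries the electrons. The 7 nuclear core subunits had median levels of 18.2 and 19.0 TPM. Ndufs7, which helps form the coenzyme Q site, led the core with 48.8 and 43.7 TPM, and Ndufv1, which binds NADH, had 43.1 and 38.5 TPM. Both were above the other 5 core genes in both libraries. The iron-sulfur subunit Ndufv2 had 18.2 and 19.0 TPM. Ndufs3 had 15.7 and 16.7 TPM, and Ndufs1, the large iron-sulfur subunit beside Ndufv1, had 11.9 and 12.2 TPM. Ndufs8, another iron-sulfur subunit, was the lowest core gene with 10.9 and 9.25 TPM. Ndufs7 thus stood at 4.59 ± 0.187 times the level of Ndufs8, and Ndufv1 at 3.40 ± 0.334 times that of Ndufs1 (SD, n = 2).

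The 10 accessory subunits of the membrane arm B series had medians of 38.5 and 30.2 TPM and a wide range. Ndufb9 (chromosome 15, 58933756 to 58939488, plus strand, GRCm38) was the highest gene of complex I, with 121 TPM in replicate 1 and 99.6 in replicate 2. Ndufb4 was the lowest of the series with 7.30 and 6.07 TPM, so that Ndufb9 stood at 16.5 ± 0.146 times its level (SD, n = 2). That rank and ratio are uncertain, since a gene and its pseudogene can share reads. The processed pseudogene Ndufb4c held 2438 and 3397 counts, against 1377 and 1914 for Ndufb4. The other 19 accessory subunits had medians of 33.0 and 29.7 TPM, led in replicate 2 and in the mean by Ndufa6 with 58.0 and 62.8 TPM. Ndufa1, with 59.4 and 54.8 TPM, led in replicate 1. Ndufa11, a membrane arm subunit, was the lowest standard subunit of the whole chain with 6.01 and 4.72 TPM. Its row rests on 1 annotated transcript of 2661 nt, against a median of 723 nt for the standard subunits, and with 3634 and 4724 counts it was not the lowest by counts. Over protein-coding transcripts alone, an alternative chosen after seeing the data, Ndufab1 had 4.77 and 4.84 TPM. On that basis Ndufab1 was below Ndufa11 in replicate 1 and above it in replicate 2.

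The 8 assembly factors of complex I, which help build the complex but are not part of it, had far lower medians than its subunits. These medians were 2.72 TPM in replicate 1 and 2.09 in replicate 2, or 0.543 ± 0.0270 times the median of expressed genes (SD, n = 2). Ndufaf8 led with 12.5 and 10.2 TPM, above the subunits Ndufa11, Ndufb4, Ndufs4 and Ndufs8 in both libraries. Ndufaf5, the partner enzyme that Ndufaf8 stabilizes, was the lowest by the mean, with 2.13 and 1.27 TPM. All 8 passed 1 TPM in both.

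Complex II, which is also the succinate dehydrogenase of the citric acid cycle, had a narrow range. Sdhd, a membrane anchor, had 34.0 TPM in replicate 1 and 29.0 in replicate 2, and the iron-sulfur subunit Sdhb had 32.4 and 24.6 TPM. The flavoprotein Sdha, which oxidizes succinate, had 22.0 and 18.9 TPM. Sdhc, the other anchor, was the lowest with 13.3 and 11.3 TPM. The order Sdhd, Sdhb, Sdha, Sdhc was the same in both libraries, although Sdhd and Sdhb differed by less than their spread.

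In complex III, which passes electrons from coenzyme Q to cytochrome c, small subunits were highest. Uqcr10 (chromosome 11, 4701973 to 4704342, minus strand) had 187 TPM in replicate 1 and 158 in replicate 2, and Uqcr11 had 140 and 120 TPM. Uqcrh, the hinge protein beside the cytochrome c site, had 76.7 and 91.1 TPM, and Uqcrb had 35.7 and 39.7 TPM. Uqcrq, with 17.6 and 9.41 TPM, was the lowest gene of the complex in replicate 2 and in the mean. The ratio of Uqcr10 to Uqcrq was therefore wide and uneven, at 10.6 in replicate 1 and 16.8 in replicate 2. Of the redox and core subunits, Uqcrc1 had 49.9 and 42.3 TPM, Uqcrc2 29.0 and 29.4 TPM, and the cytochrome gene Cyc1 34.4 and 24.6 TPM. Uqcrfs1, the Rieske iron-sulfur protein, had 17.2 and 18.9 TPM and was the lowest in replicate 1. Uqcr10 stood at 9.64 ± 1.79 times the level of Uqcrfs1 (SD, n = 2).

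All 11 widely expressed nuclear subunits of complex IV, cytochrome c oxidase, were above 30 TPM in both libraries. Cox4i1 (chromosome 8, 120668222 to 120674207, plus strand), a subunit that contacts the catalytic core, was the highest with 172 TPM in replicate 1 and 161 in replicate 2. Cox6a1 had 152 and 134 TPM, Cox6c 124 and 144 TPM, Cox8a 125 and 115 TPM and Cox6b1 109 and 103 TPM. Ndufa4, named after complex I but known as a subunit of complex IV, had 90.9 and 108 TPM. Cox7c, Cox5b and Cox7a2 had means of 93.8, 69.7 and 55.3 TPM. Cox5a had 38.8 and 30.4 TPM, so that Cox4i1, which pairs with it early in assembly, stood at 4.87 ± 0.615 times its level (SD, n = 2). Cox7b had 33.1 and 32.1 TPM and was the lowest in replicate 1 and in the mean, while Cox5a was the lowest in replicate 2.

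The tissue isoforms of complex IV were below 2 TPM in both libraries with 1 exception. Cox6b2, described in testis, had 14.6 TPM in replicate 1 and 15.3 in replicate 2, from 1222 and 2082 estimated counts. It stood above the median of expressed genes in both libraries and held 12.4% ± 0.817 of the family's TPM (SD, n = 2), against 87.6% for Cox6b1. The authors' posterior standard deviation of the Cox6b2 count was 0, and the gene overlaps no other annotated gene. That deviation was also 0 for Ndufa4l2 and Ndufs1, which do overlap other genes, so it does not settle whether reads were shared. Cox6b2 (chromosome 7, 4751792 to 4753094, minus strand) lies far from Cox6b1 (chromosome 7, 30616861 to 30626151, minus strand). Of the 6 germ cell markers, Tnp1, Prm1, Prm2 and Ldhc were at 0 counts in both libraries. Ddx4 had 21 and 28 counts, and Sycp3 had 2 and 1. The 6 markers summed to 0.040 and 0.030 TPM. In bulk RNA, a few cells with much of a transcript and many cells with little cannot be told apart.

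The muscle isoforms were low. Cox6a2, the heart and skeletal muscle form, had 0.19 and 0.25 TPM from 23 and 50 counts, and Cox6a1 held 99.8% of that family. Cox7a1, also typical of heart and muscle, had 0.91 and 0.63 TPM from 46 and 51 counts, and Cox7a2 held 98.6% ± 0.446 of the pair (SD, n = 2). Cox8b, another muscle form, had 0 counts in both libraries, and Cox8a stood at least 2086-fold higher in replicate 1 and 3088-fold higher in replicate 2 than the floor of 3 counts per library. The 7 muscle markers summed to 0.060 and 0.090 TPM, with Myh2 and Actc1 at 0.

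Further isoforms had 0 counts in both libraries. Cox4i2, the lung form that responds to oxygen, was at 0, and Cox4i1 stood at least 7959-fold and 12270-fold higher than the floor of 3 counts. Cox7b2 and Cox8c, forms described in testis, were at 0 as well. Cox7b stood at least 1034-fold and 1636-fold above the floor of Cox7b2, and Cox8a at least 3229-fold and 4836-fold above that of Cox8c. Ndufa4l2, a relative of Ndufa4 known to be induced by low oxygen, had 1.58 TPM in replicate 1 and 0.70 in replicate 2, from 308 and 225 counts. Ndufa4 held 98.8% ± 0.755 of that pair (SD, n = 2). Ndufa4l2 overlaps Shmt2 on the other strand, which stood at 26.2 and 23.4 TPM, and no source used here says whether counting used strand, so its few reads are uncertain.

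**Figure D2:**
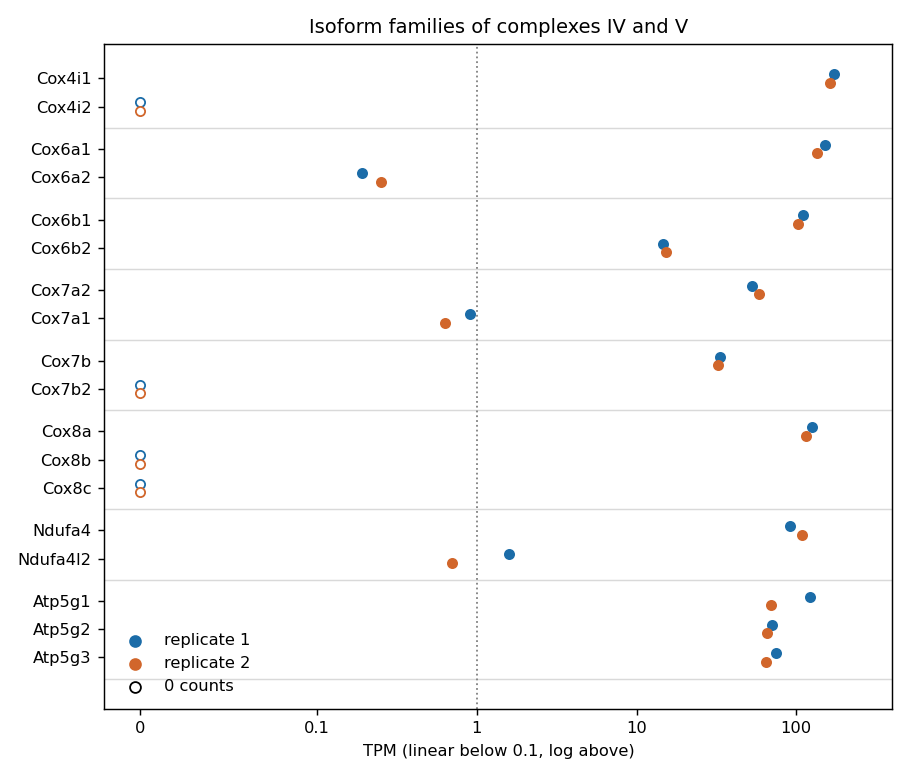
Each row is 1 gene of an isoform family of complex IV or V, with TPM in replicate 1 (blue) and replicate 2 (orange) on an axis that is linear below 0.1 and logarithmic above; open circles mark 0 counts and the dotted line 1 TPM. Cox6b2, at 14.6 and 15.3 TPM, is the single tissue isoform of complex IV above the dotted line in both libraries, and the c ring genes Atp5g1, Atp5g2 and Atp5g3 lie side by side.

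The stretches before the start of the isoform genes are shown so that the widely expressed and the tissue form of a family can be compared, for the 4 families with a RefSeq promoter window for both. Each line gives 100 bases of GRCm38.p6 that end before the first base of the gene in both RefSeq and GENCODE, 5′ to 3′ on the gene's strand, with CG dinucleotides in capitals.
Cox6b1: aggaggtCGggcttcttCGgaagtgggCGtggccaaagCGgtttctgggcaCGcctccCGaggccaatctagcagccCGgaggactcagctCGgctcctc
Cox6b2: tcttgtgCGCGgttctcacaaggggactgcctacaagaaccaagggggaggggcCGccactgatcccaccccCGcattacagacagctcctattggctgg
Cox7a2: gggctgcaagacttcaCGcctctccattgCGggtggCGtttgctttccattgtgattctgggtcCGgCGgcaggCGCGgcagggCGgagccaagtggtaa
Cox7a1: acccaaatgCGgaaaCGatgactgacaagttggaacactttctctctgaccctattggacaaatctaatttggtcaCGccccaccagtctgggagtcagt
Cox8a: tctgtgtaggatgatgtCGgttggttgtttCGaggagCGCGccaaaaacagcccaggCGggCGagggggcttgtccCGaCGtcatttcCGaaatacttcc
Cox8b: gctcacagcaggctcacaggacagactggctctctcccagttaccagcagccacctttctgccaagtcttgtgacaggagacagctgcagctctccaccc
Cox7b: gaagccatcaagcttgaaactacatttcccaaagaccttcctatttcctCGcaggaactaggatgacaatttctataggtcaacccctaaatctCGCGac
Cox7b2: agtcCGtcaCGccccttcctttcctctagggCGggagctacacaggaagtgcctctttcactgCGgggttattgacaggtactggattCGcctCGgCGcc

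In the 250 bases before the RefSeq start, Cox6b1 held 14 CG dinucleotides against 8 for Cox6b2, Cox7a2 held 14 against 4 for Cox7a1, and Cox8a held 11 against 1 for Cox8b. The pair of Cox7b and Cox7b2 went the other way, with 5 and 9, although Cox7b2 was at 0 counts. The median over all 32851 RefSeq windows was 6, with quartiles of 2 and 16, and this count was chosen after the levels were seen. The stretches lie on chromosome 7 at 30626152 to 30626251 (minus strand) for Cox6b1, at 4753095 to 4753194 (minus) for Cox6b2, at 30184044 to 30184143 (plus) for Cox7a1 and at 140900447 to 140900546 (minus) for Cox8b. Those of Cox7a2, Cox8a, Cox7b and Cox7b2 lie on chromosome 9 at 79759879 to 79759978 (minus), on chromosome 19 at 7217617 to 7217716 (minus), on chromosome X at 106015600 to 106015699 (plus) and on chromosome 5 at 71548206 to 71548305 (minus).

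Each window, from 250 bases before to 50 bases after the start, was also searched on both strands for letters bound by known regulators of the chain: CGCATGCG for NRF1, CCGGAAG for the ETS factor GABP and AAGATGGC for YY1. Of all RefSeq windows, 1.87% held the NRF1 letters, 8.86% the ETS letters and 2.75% the YY1 letters. Among the 8 genes shown, Cox6b1 held the ETS letters on the reverse strand from base -28, and Cox8a held them there from bases -5 and 33, counted from the RefSeq start. These matches do not lie whole within the printed stretches. None of the 8 held the other two. A match describes letters and not binding. Only 74 of 94 members, or 78.7%, had a window, under the 80% needed, so no share over the members is given.

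In complex V, the ATP synthase, the genes of the catalytic head ranged from the highest level of the complex to one of the lower ones. Atp5b (chromosome 10, 128083273 to 128090391, plus strand), the beta subunit that carries the catalytic sites, was the highest member of the whole set with 234 TPM in replicate 1 and 244 in replicate 2. Atp5a1, the alpha subunit that alternates with beta around the head, had 121 and 113 TPM. Atp5e, Atp5d and Atp5c1, which form the central stalk that turns inside the head, had means of 78.4, 44.3 and 38.7 TPM. Alpha and beta are each present in more copies per complex than the single gamma subunit encoded by Atp5c1. Whether RNA levels follow the number of copies was not tested. Atp5b stood at 6.18 ± 0.192 times the level of Atp5c1, and Atp5a1 at 3.03 ± 0.148 times (SD, n = 2). Over transcripts annotated as protein-coding, an alternative chosen after seeing the data, the ratio of Atp5b to Atp5c1 was 3.35 ± 0.174. On that basis the ratio of Atp5b to Atp5a1 was 1.33 ± 0.0276, against 2.05 ± 0.164 for all transcripts.

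The c ring, the rotor through which protons pass, is encoded by 3 genes with different leader peptides and the same mature protein. Atp5g1 had 122 TPM in replicate 1 and 69.2 in replicate 2, Atp5g2 had 70.9 and 65.4 TPM, and Atp5g3 had 74.4 and 64.8 TPM. In replicate 1 Atp5g1 stood apart from the other two, while in replicate 2 the 3 genes lay within a few TPM of each other. Atp5g1 held 45.7% of the family in replicate 1 and 34.7% in replicate 2, so its lead in the mean rests on replicate 1. Among the 8 genes of the stalk and membrane part, Atp5k was the highest with 154 and 106 TPM and Atp5j the lowest with 21.9 and 22.6 TPM. Atp5h, Atp5l, Atp5o, Atp5j2 and Atp5mpl lay between 68.3 and 91.8 TPM in the mean, and Atp5f1 at 36.4. Atp5s, a coupling factor outside the complex, had 1.00 and 1.09 TPM.

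The subunits encoded by mitochondrial DNA stood at other ratios to the nuclear ones in each complex. In complex I, the 7 mitochondrial genes stood at a median level of 36.6 TPM in replicate 1 and 19.2 in replicate 2, which was 1.12 and 0.654 times the nuclear median. In complex III, mt-Cytb had 90.9 and 63.1 TPM, or 2.07 ± 0.676 times the nuclear median (SD, n = 2). In complex IV, the 3 mitochondrial genes had a median of 465 and 440 TPM, or 4.62 ± 0.474 times. In complex V, mt-Atp6 and mt-Atp8 had a median of 409 and 382 TPM, or 5.54 ± 0.0188 times. For complex I, the median of the mitochondrial genes was therefore above the nuclear median in replicate 1 and below it in replicate 2. Single genes departed from this, such as mt-Nd5 with 25.5 TPM in replicate 1 and mt-Nd3 with 122 TPM in replicate 2. With counts per full length the ratio was 3.11 for complex V and 5.10 for complex IV, so the order of these complexes turned. Posterior mean TPM gave a lower ratio of 3.48 for complex IV.

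The 2 libraries were then compared gene by gene, to see how far the levels above hold between them. Each of 15275 genes was tested by an exact binomial test, two-sided, after TMM scaling (by the trimmed mean of ratios), with Benjamini-Hochberg adjustment. A gene was called where the adjusted p was under 0.05 and the libraries differed by at least 2-fold. The test speaks of the reads of these libraries, and counting is the only error it knows. On the TPM scale, expressed nuclear protein-coding genes had a median log2 ratio of replicate 2 to replicate 1 of -0.26, and on the TMM scale of 0.04. Ratios between libraries below are on the TMM scale.

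None of the 90 members tested was called, against 6.30% of all genes tested (2.38% higher and 3.93% lower in replicate 2) and 1.18% of the 7990 nuclear protein-coding genes at 1 TPM or more. At an unadjusted p under 0.05 in the same exact test, 57 members were higher in replicate 2 and 15 lower. The shares at that limit were 32.5% higher and 31.5% lower over all genes tested, and 45.8% and 33.9% over the 7990. With the 2-fold limit, 0 members were called as well when DESeq2 size factors, or the totals of the libraries, replaced TMM. At an adjusted p under 0.05 with no fold limit, 56 members were higher and 15 lower, against 31.3% and 30.1% of all genes tested and 44.9% and 33.0% of the 7990. Most expressed genes thus passed the test at this depth when no fold was asked. Their log2 ratios were small, with a median of 0.13 and a median size of 0.18, against a median size of 0.20 for expressed nuclear protein-coding genes. The share of 1.18% over 90 genes is near 1 gene, so the count of 0 is close to the background.

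The members with the largest ratios were spread over complexes I, III, IV and V. Ndufa4l2 had the lowest, with 308 counts in replicate 1 and 225 in replicate 2 and a log2 ratio of -0.90 (95% interval -1.16 to -0.65). Ndufaf4, an assembly factor of complex I, had 1696 and 1329 counts and a ratio of -0.80 (-0.91 to -0.70). Atp5g1 had 16326 and 15547 counts and a ratio of -0.52 (-0.55 to -0.49). Each of the 3 had fewer counts in replicate 2 although that library was deeper. At the other end stood Cox7a2l, which joins complexes III and IV into supercomplexes, with 7012 and 15791 counts and a ratio of 0.72 (0.68 to 0.76). Ndufa4 and Uqcrh followed with 0.51 each. Cox6a2 had 0.65, but on 23 and 50 counts, and its interval of -0.07 to 1.45 includes 0. With a limit of 1.5-fold, 3 members were called: Cox7a2l higher, and Ndufa4l2 and Ndufaf4 lower, in replicate 2. That limit called 15.8% of all genes tested and 8.27% of the 7990.

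By role, all 7 nuclear core genes of complex I had positive ratios, with 0.03 for Ndufs8, 0.35 for Ndufv2 and 0.40 for Ndufs3, except that Ndufs8 turned to -0.0036 when total counts replaced TMM. All 5 genes of the catalytic head of complex V had positive ratios under each count scaling tried, from 0.11 for Atp5d to 0.45 for Atp5e. In TPM, however, Atp5a1, Atp5c1 and Atp5d were lower in replicate 2, as were the core genes Ndufs7, Ndufv1 and Ndufs8. The other genes of both groups were higher in TPM. Of the 8 assembly factors of complex I, 5 had negative ratios. For comparison, 71 of the 90 members tested had positive ratios under TMM and 19 negative ones. Among the 7990 expressed nuclear protein-coding genes, 4495 were positive and 3495 negative. The 7 complex I genes of mitochondrial DNA all had negative ratios under TMM, from -0.15 for mt-Nd3 to -1.26 for mt-Nd4l, and mt-Nd4l was called lower. In complex IV, mt-Co1, mt-Co2 and mt-Co3 had 0.05, 0.18 and 0.48. Erythroid markers also differed between the libraries. Of 9 markers, Hba-a1, Hba-a2, Hbb-bs, Hbb-bt, Alas2 and Epb42 were called higher in replicate 2. The list of markers summed to 6549 TPM in replicate 1 and 13690 in replicate 2. Whether the markers and the ratios of the members are linked was not tested.

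**Figure D3:**
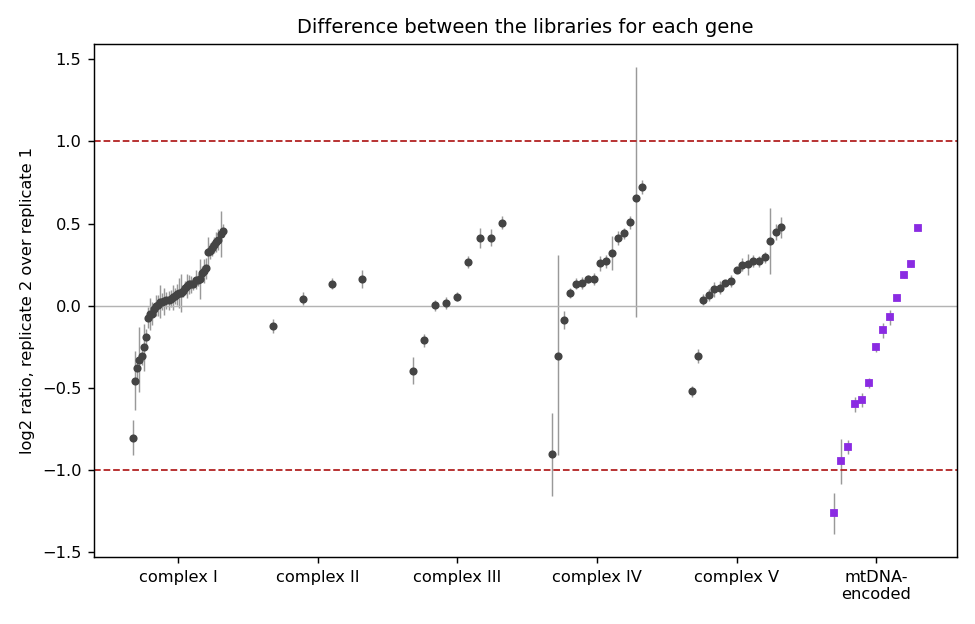
Each point is 1 gene with 10 or more counts in a library, with the log2 ratio of replicate 2 to replicate 1 after TMM scaling and its exact 95% interval (counting error only), ordered within complexes I to V (black) and for genes of mitochondrial DNA (purple); red dashed lines mark 2-fold. All 90 nuclear genes lie between the dashed lines, from -0.90 to 0.72, and mt-Nd4l lies below them at -1.26.

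Assembly factors, coenzyme Q enzymes, cytochrome c genes and regulators had lower medians, list by list, than the standard subunits of any complex. Of the assembly factors outside the name rule, 8 of 9 for complex I, 2 of 4 for complex II, 5 of 6 for complex III, 20 of 23 for complex IV and 2 of 2 for complex V passed 1 TPM in each library. Coa3 and Cox17, which act in the making and copper loading of complex IV, led their list with 35.3 and 30.1 TPM and with 35.1 and 29.6 TPM, which is within the range of the subunits. The medians of the 5 assembly lists ran from 2.27 to 6.79 TPM in replicate 1 and from 1.91 to 5.65 in replicate 2. None of these assembly factors was called between the libraries, in either direction. The share called was 6.30% of all genes tested and 1.18% of the 7990 expressed nuclear protein-coding genes. At the second share, a count of 0 over these lists is close to the background. Coenzyme Q synthesis had 11 of 13 genes expressed with medians of 2.83 and 1.78 TPM, and enzymes that feed electrons into coenzyme Q had 7 of 7 with medians of 4.96 and 3.45 TPM. Cycs, the cytochrome c of body cells, had 8.34 and 4.25 TPM, in TPM well below the complex III and IV subunits it links. By counts it was not below all of them, with 5552 and 4699 against 2470 and 2568 for Uqcrq. Its testis relative Cyct had 0.00 and 0.01 TPM. Of these 3 lists 0 genes were called, which is close to the same background.

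Of 14 regulators of mitochondrial biogenesis 12 were expressed, with medians of 3.5 and 3.04 TPM. Nrf1, a factor that binds promoters of many respiratory chain genes, had 7.64 and 6.51 TPM, and the GABP subunit genes Gabpa and Gabpb1 had 3.17 and 3.05 TPM and 2.04 and 1.58 TPM. Tfam, which packages mitochondrial DNA, had 6.38 and 5.50 TPM. Of the coactivators, Pprc1 had 8.58 and 3.38 TPM and was called lower in replicate 2, with a log2 ratio of -1.03. Ppargc1a had at most 1 count in either library and Ppargc1b 1.10 and 0.52 TPM. Pprc1 was the only called gene of the 13 regulators tested, against 6.30% of all genes tested and 1.18% of the 7990.

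The leading transcript of a member was the same in both libraries throughout. Of the 87 expressed members, 62 had several annotated transcripts, and all 62 had the same leading transcript in both libraries, against 92.9% of 6058 nuclear protein-coding genes. The leading transcript held a median of 91% of the member's TPM, against 66.5% for nuclear protein-coding genes, and it was annotated as protein-coding in 60 of the 62. The exceptions were Cox6b2 and Ndufab1, the mitochondrial acyl carrier protein. In Cox6b2 a retained-intron transcript led with 28.8% ± 0.170 (SD, n = 2), and transcripts annotated as protein-coding summed to 8.44 TPM in replicate 1 and 9.38 in replicate 2. By those transcripts alone, Cox6b1 stood at 12.0 ± 1.42 times the level of Cox6b2, against 7.10 ± 0.535 times over all transcripts. In Ndufab1 a retained-intron transcript also led, with 38.0% ± 2.18, and retained-intron transcripts together held 69.5% ± 0.831.

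Among members led by a protein-coding transcript, the smallest shares of that transcript were 36.3% ± 1.02 for Ndufa5, 38.1% ± 4.15 for Ndufs1 and 43.2% ± 8.37 for Ndufaf4 (SD, n = 2). In Ndufv1, retained-intron transcripts held 41.1% ± 3.32 of the TPM. In Atp5b, the leading protein-coding transcript held 54.2% ± 4.49, and a processed transcript of 478 nt, which is annotated as noncoding, held 34.7% ± 3.54. Such short transcripts weigh heavily in TPM, since few reads on a short model give a high level.

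A minority of members shared a feature of place, which their names did not set. A protein-coding gene started head to head, on the other strand within 1000 nt, beside 23 members, or 24.5% of 94 and 26.4% of the expressed ones. The share was 6.76% of all nuclear protein-coding genes and 12.9% of the expressed ones. The nearest pairs were Ndufa7 with the ribosomal protein gene Rps28 at 10 nt, Ndufb9 with Tatdn1 at 18 nt, and Sdha with Ccdc127 at 29 nt. Partners did not stand at matching levels: Ndufa7 had 55.5 ± 3.42 TPM beside 522 ± 104 for Rps28, and Ndufb9 had 110 ± 15.3 TPM beside 0.915 ± 0.0495 for Tatdn1. Sdhd and Timm8b, a chaperone of the space between the mitochondrial membranes, were closer with 31.5 ± 3.54 and 24.7 ± 1.73 TPM (SD, n = 2). In addition, 32 members overlap another gene on the other strand, among them Ndufs1 with Eef1b2, which stood at 160 and 156 TPM, so reads in the shared part are uncertain. Members lay on 19 of 21 chromosomes.

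Shorter transcripts had higher levels. Across the 76 standard subunits, length and TPM had a Spearman correlation of -0.55 in both libraries. This describes genes within a library, and genes are no replicates of each other. Across 7990 expressed nuclear protein-coding genes it was -0.37 and -0.35. In complex I it was -0.64 and -0.63 over 36 genes, while in complex V it was -0.09 and -0.25 over 16 genes. The authors' effective lengths were 154 nt and 161 nt shorter than the full lengths, which raises the TPM of short transcripts most. With counts divided by full length the correlation over the 76 subunits was -0.43 in both libraries, while in complex V it turned to 0.12 and 0.0029.

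**Figure D4:**
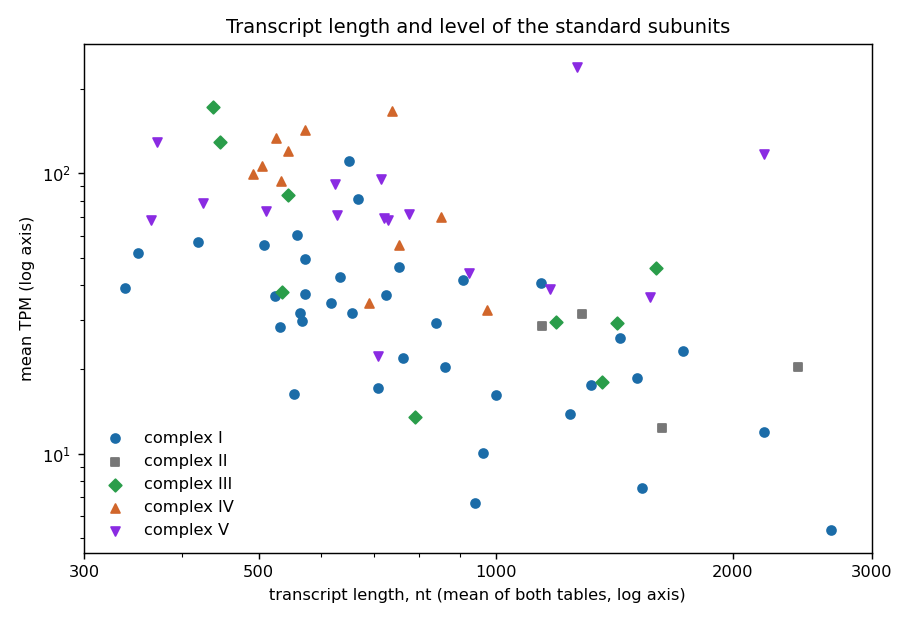
Each point is 1 of the 76 standard subunits, with transcript length in nt and mean TPM of both libraries on log axes, marked by complex. Long genes of complex I such as Ndufa11 (2661 nt) lie at the bottom right, while the complex V genes Atp5b and Atp5a1 lie high at lengths over 1000 nt.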

How the data were processed

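Gene and transcript tables of 2 total RNA libraries were used as the authors deposited them. Per the file headers, the authors' tables hold estimated counts, TPM, FPKM, posterior means and posterior standard deviations of the count, and the percent of a gene's TPM held by each transcript. The authors' genome and annotation were mm10 and GENCODE M4, per the deposited readme. The sources used here do not give the aligner or the quantification program. Fragments were selected at 300 to 350 bases, per the labels. The posterior standard deviation of the count, a score with no fixed range, is the authors' deposited value. Bounds of TPM intervals, a signal-like column the authors deposited beside it, were not used.

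Names, types and coordinates (1-based, GRCm38) came from the later GENCODE M21 release, by gene identifier without version. The members and lists were chosen with earlier results of these data known, and the list of subunits outside the name rule was added after the data were seen. Levels are TPM as deposited, with mean and SD over the libraries. Expressed means 1 TPM or more in both libraries. Counts were rounded and compared by an exact two-sided binomial test on genes with 10 or more counts in a library, with TMM scaling (edgeR 4.0.16, R 4.3.3), Benjamini-Hochberg adjustment, and 0.5 added for log2 ratios. Intervals at 95% are exact and, like floors of 3 counts, cover counting error only. Posterior standard deviations were at most 1.68% of a member's count, under the limit of 5% set for uncertain assignment. A value under that limit does not settle whether reads were shared. The test was tried on simulated data first. Promoter windows came from RefSeq (GRCm38.p6).

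Genes named with values are the highest and lowest of each complex and role, core subunits, isoform families, members under 1 TPM, and members with the smallest leading transcript shares. Values of 1 member are not reported here. Alternatives were FPKM, posterior means, full transcript length, a rescaled TPM, other thresholds, count minimums, pseudocounts and scalings (DESeq2 1.42.0 size factors, total counts), and each library left out. Protein-coding transcripts alone were added after seeing the data.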

Additional observations from a re-analysis of the deposited data

How the results depend on the processing

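Leaving out 1 library left the fold over expressed genes at 6.76 to 7.37 for complex I, 5.47 to 5.63 for II, 7.39 to 9.98 for III, 19.4 to 25.8 for IV and 15.2 to 17.4 for V. It left the share of Atp5g1 in the c ring at 34.7% to 45.7%, and the expressed members at 87 and 88. With counts per full length the fold was 5.60 for complex I, 5.36 for II, 17 for IV and 13.2 for V. Over protein-coding transcripts alone, chosen after seeing the data, it was 7.56 for I, 6.02 for II, 10.6 for III, 27.7 for IV and 20.0 for V, and the share of Cox6b1 was 92.2%. Posterior mean TPM gave shares of 99.994% for Cox4i1, 99.97% for Cox7b and 99.98% for Cox8a, and ratios of mitochondrial to nuclear medians of 3.48 in complex IV and 5.36 in complex V. With counts per full length these ratios were 5.10 and 3.11, and the cause was not tested. Since complex V stood above complex IV under TPM, the order of the pair turned with that choice. The order of the nuclear medians of complexes IV, V, III, I and II held under each of these settings.

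A limit of 1.5-fold called 3 members in place of 0, and 2413 of all genes in place of 963. A minimum of 100 counts called 387 of all genes. Total counts in place of TMM turned the log2 ratios of 7 members negative: Uqcr11 (-0.012), Ndufs6 (-0.029), Ndufb4 (-0.0058), Ndufs5 (-0.029), Ndufb7 (-0.0051), Uqcr10 (-0.029) and Ndufs8 (-0.0036). In the bases before the start alone, the ETS letters stood in 6.91% of windows, the NRF1 letters in 1.55% and the YY1 letters in 1.56%. No paired analysis was possible because the libraries form 1 group. With 1 condition and 2 libraries, no error of a level beyond their spread can be given.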

Other observations

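Chosen after their values were seen, 3 related genes that are not members, by type or by name, stood in the range of the members. The row of Ndufb4c (chromosome 15, 73809507 to 73809896, minus strand, within Mroh5), annotated as a processed pseudogene, had 42.8 TPM in replicate 1 and 37.0 in replicate 2, from 2438 and 3397 counts. Its level was 5.98 ± 0.158 times that of Ndufb4 (SD, n = 2), and its counts were 1.77 times those of Ndufb4 in both libraries. The authors' posterior standard deviation was at most 0.952% of its count. Of 5349 processed pseudogene rows, 31 were at or above its mean, itself included. Since a gene and its pseudogene can share reads, both levels are uncertain. The other 10 processed pseudogenes with matching names and a row were below 1 TPM in both libraries.

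Usmg5, a small membrane subunit of complex V under an older name, had 71.0 and 67.1 TPM, and Atpif1, the inhibitor of the ATP synthase, had 83.9 and 96.4 TPM. Both lay near the complex V medians of 73.6 and 69.1 TPM.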
